A study of Mus musculus with 12 samples.

Results

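Hox genes encode the homeodomain transcription factors that mark position along the body axis. They were described here in bulk RNA-seq of tissue from beside the spine of 12 mice. The members were chosen by gene symbol alone (Hox, a cluster letter from a to d and a paralogue number), which 38 of the 18996 genes in the deposited table met, 11 in the *Hoxa* cluster on chromosome 6, 10 in *Hoxb* on chromosome 11, 9 in *Hoxc* on chromosome 15 and 8 in *Hoxd* on chromosome 2 (GRCm38). The reference annotation holds 39 such genes, and *Hoxd12* was not analysed here.

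The study used BALB/c mice of both sexes, 5 to 7 weeks old, to ask which changes of the healing tissue go with opening of the spinal canal. The No operation group (n = 4) gave paraspinal soft tissue without surgery. The SHAM group (n = 4) had surgery in which soft tissue beside the spine was removed and the laminae were left. In the Laminectomy group (n = 4) the muscles were separated. Spinous processes and laminae at T12 to L2, the thoracolumbar junction, were then removed down to the dura. By the labels, both operated groups gave soft tissue together with scar, and the study gives the seventh day after surgery for the sequenced scar. So a comparison with No operation mice sets soft tissue with scar against soft tissue without it, and in such bulk tissue fewer cells of a type and less RNA per cell cannot be told apart. Surgery and the presence of scar cannot be told apart either, and no group had scar without surgery.

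The Hox genes of each cluster lie in a row on the chromosome, and in the embryo genes with low paralogue numbers are used toward the head while those with higher numbers are added toward the tail. Paralogues 4 and 5 are first used in the neck, paralogues 6 to 9 mark the thorax, and paralogues 10 to 13 mark the lumbar, sacral and tail regions. Fibroblasts and muscle stem cells of the adult keep part of this positional code. HOX proteins bind DNA together with PBX, MEIS and PKNOX cofactors, and Polycomb and Trithorax (MLL) complexes hold the genes in a silent or an open state.

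Total counts ran from 16803002 to 18077873 per mouse. Muscle fibre transcripts took much of the RNA of No operation mice. The summed level of 10 muscle fibre marker genes was 87104 to 122639 CPM (counts of a gene scaled to a common library size) in that group, 2167 to 8739 CPM in SHAM and 2979 to 12277 CPM in the Laminectomy group, and all 10 genes were called lower in both operated groups (the call is defined with the comparisons). The sum of 12 fibroblast markers was 9405 to 28894 CPM in No operation, 59268 to 80253 CPM in SHAM and 55319 to 68451 CPM in the Laminectomy group, with 7 genes called higher in each operated group and 1 (SHAM) and 2 (Laminectomy) called lower. The sum of 8 macrophage markers was 485 to 1160 CPM, 2712 to 4881 CPM and 1703 to 2265 CPM in the same order, with 8 and 7 genes called higher. Of 8 satellite cell and regenerating fibre genes, 5 were called higher in each operated group, and of 5 adipocyte markers, 3 were called lower in SHAM and 5 in Laminectomy mice. Beside these counts, 25.7% of all genes tested were called higher and 25.1% lower in SHAM, and 24.2% and 24.4% in Laminectomy mice. These marker genes moved with every comparison with No operation mice given here, and their part in the Hox differences was not tested. Some libraries stood apart within their groups. Neutrophil markers summed to 1693 and 676 CPM in No operation mice 2 and 3 and to 59.5 and 13.7 CPM in mice 1 and 4 of that group. Cartilage and bone markers summed to 630 and 188 CPM against 24.9 and 15.4 CPM in the same mice. In SHAM mouse 1, 8 satellite cell and regenerating fibre genes summed to 49.3 CPM against 1350 to 2255 CPM in the other SHAM mice. Keratinocyte markers summed to 104 and 79.4 CPM in SHAM mice 1 and 3 and to at most 16.2 CPM in the other operated mice, and Laminectomy mouse 2 had the highest nervous tissue sums, given with its comparison. No operation mouse 1 differed from its group in the Hox genes themselves, as set out with the levels.

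The promoters of 4 members on which the comparisons turn are shown, 2 that were higher after surgery (*Hoxb8*, *Hoxb4*) and 2 that were called lower in SHAM mice (*Hoxd8*, *Hoxd10*). Each line gives the 250 bases before a start annotated for the gene, 5′ to 3′ on the gene's strand (build GRCm38.p6). For *Hoxb4* and *Hoxd8* this is the RefSeq start of the gene, and for *Hoxb8* and *Hoxd10* it is a start inside the gene. Capitals mark the 2 motifs searched on both strands. TGATNNAT is a form bound by HOX with PBX, and TTTATNG a form bound by CDX and posterior HOX factors. The windows are chr11:96281655-96281904 for *Hoxb8*, chr11:96318017-96318266 for *Hoxb4*, chr2:74704365-74704614 for *Hoxd8* and chr2:74691641-74691890 for *Hoxd10*, all on the plus strand. None of the 4 windows held a base of a GENCODE M21 exon. The *Hoxd8* window lies in an intron of *Hoxd3os1* and the *Hoxd10* window in an intron of *Gm28309*. By the RefSeq bounds, the *Hoxb4* window also lies inside *Hoxb3*, and the *Hoxb8* and *Hoxd10* windows lie inside the spans of their own genes.
Hoxb8: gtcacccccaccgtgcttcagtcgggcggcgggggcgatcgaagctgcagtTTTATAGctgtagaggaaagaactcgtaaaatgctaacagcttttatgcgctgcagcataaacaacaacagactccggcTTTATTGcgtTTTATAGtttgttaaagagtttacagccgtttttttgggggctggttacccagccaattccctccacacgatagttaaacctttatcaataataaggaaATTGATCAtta
Hoxb4: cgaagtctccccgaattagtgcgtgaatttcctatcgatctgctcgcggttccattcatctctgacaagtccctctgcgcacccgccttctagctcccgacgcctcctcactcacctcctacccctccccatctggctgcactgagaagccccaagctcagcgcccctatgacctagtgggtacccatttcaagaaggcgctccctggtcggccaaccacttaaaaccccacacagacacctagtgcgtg
Hoxd8: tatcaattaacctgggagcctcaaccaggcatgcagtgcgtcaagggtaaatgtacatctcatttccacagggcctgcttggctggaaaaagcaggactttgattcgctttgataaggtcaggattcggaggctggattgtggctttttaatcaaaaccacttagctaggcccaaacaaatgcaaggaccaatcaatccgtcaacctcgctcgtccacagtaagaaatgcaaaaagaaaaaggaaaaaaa
Hoxd10: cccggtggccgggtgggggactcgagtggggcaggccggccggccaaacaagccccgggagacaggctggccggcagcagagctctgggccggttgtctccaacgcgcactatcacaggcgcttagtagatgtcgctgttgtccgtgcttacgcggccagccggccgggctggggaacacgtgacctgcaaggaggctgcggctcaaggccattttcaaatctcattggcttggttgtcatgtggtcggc
The *Hoxb8* window held TTTATNG 3 times and TGATNNAT once, with no overlap between matches, and the other 3 windows held neither. Of all 32851 promoter windows of this length, 9.81% held TTTATNG and 7.68% held TGATNNAT, and 16 windows held TTTATNG at least 3 times. Of 17 windows of tested Hox genes, 2 held each motif. Promoter windows were matched for 21 members, *Hoxb9*, *Hoxb2*, *Hoxc5*, *Hoxc6*, *Hoxc9* and *Hoxc10* not among them.

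Paralogues 6 to 10, known from the thoracic and lumbar regions, held most of the Hox signal in all groups, and the level fell sharply beyond paralogue 10. Levels between genes were compared per length, as CPM per kilobase of exon (RPKM). *Hoxc6* was the highest member, with 25.5 ± 7.17 RPKM in No operation, 21.7 ± 5.91 in SHAM and 23.9 ± 6.22 in Laminectomy mice (mean ± SD, n = 4). It was followed over the 12 mice by *Hoxd8* (18.2 ± 3.17, 9.05 ± 1.51 and 11.1 ± 2.47 RPKM in the same order), *Hoxc10* (13.6 ± 8.08, 9.15 ± 3.11 and 12.95 ± 0.947 RPKM) and *Hoxa6* (9.51 ± 2.21, 6.58 ± 0.878 and 9.14 ± 1.22 RPKM). Within groups the order varied, with *Hoxd9* (9.86 RPKM) above *Hoxa6* in No operation mice and *Hoxc8* (7.05 RPKM) above it in SHAM mice. *Hoxb7*, the highest *Hoxb* member per length, had a mean of 3.28 RPKM over the 12 mice, but in Laminectomy mice *Hoxb9* was higher (6.08 ± 1.60 against 4.24 ± 1.13 RPKM), with overlapping ranges. *Hoxc6* and *Hoxd8* overlapped in range in No operation mice only, *Hoxd8* and *Hoxc10* in all 3 groups, with the higher mean for *Hoxc10* in SHAM and Laminectomy mice, and *Hoxc10* and *Hoxa6* in No operation and SHAM mice.

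At the ends of the clusters little or nothing was counted. *Hoxb1*, which marks a hindbrain segment in the embryo, had no count in any mouse, which allows a level of up to 0.154 to 0.210 CPM per mouse (3 counts, counting error only). *Hoxa13*, *Hoxb13*, *Hoxc12*, *Hoxc13* and *Hoxd13*, genes of the tail and the ends of the limbs, had 2, 4, 11, 6 and 1 counts over the 12 mice together. *Hoxd1*, *Hoxd11* and *Hoxc11* had 15, 24 and 58 counts. These 9 genes did not pass the filter on low counts and were not tested, so 29 members were. Laminectomy mouse 2 held 4 of the 4 *Hoxb13* counts, 9 of the 11 *Hoxc12* counts, 4 of the 6 *Hoxc13* counts and 12 of the 24 *Hoxd11* counts. That mouse also had the highest summed level of 7 neuron markers, 167 CPM, and its part in these counts was not tested.

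**Figure D1:**
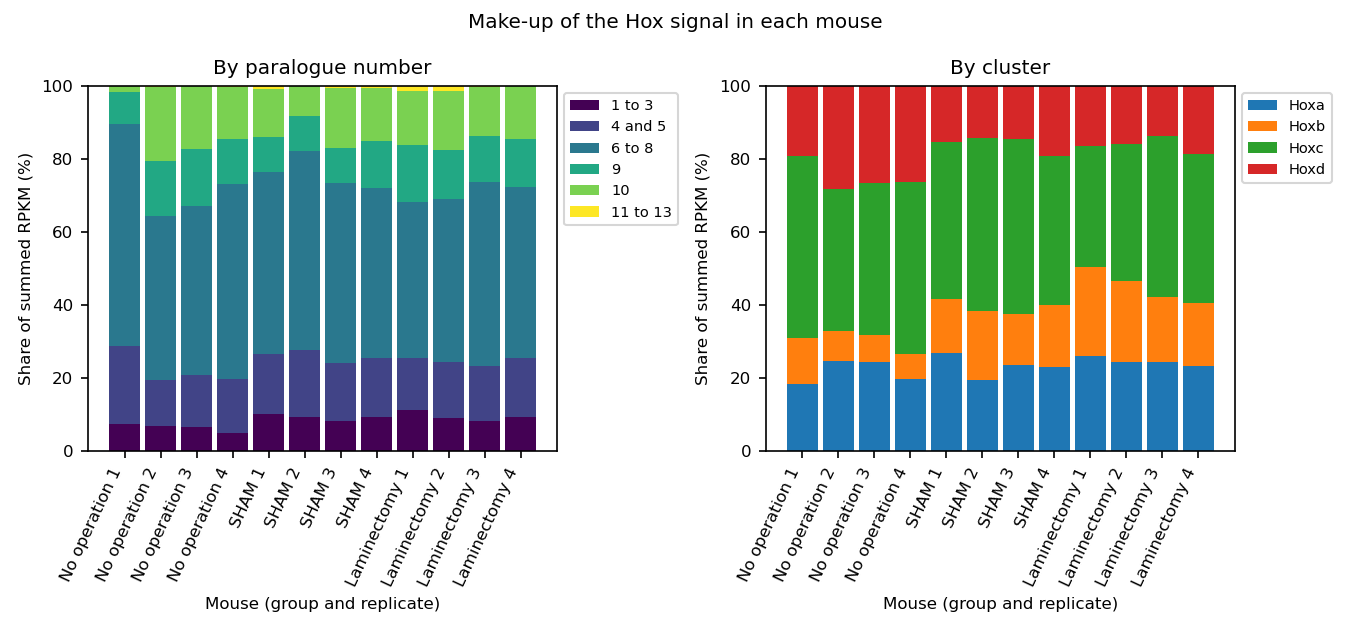
Share of the summed Hox level in each of the 12 mice, by paralogue number (left) and by cluster (right). The vertical axes give percent of summed RPKM, 1 bar stands for 1 mouse, and bars add up to 100%. The paralogue 10 share is 1.67% in No operation mouse 1 and 8.12% to 20.2% in the other mice. The *Hoxb* share is 6.71% to 12.4% in No operation mice and 13.9% to 24.3% in operated mice, while the summed *Hoxb* CPM of SHAM and No operation mice overlaps.

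Per length, paralogues 6 to 8 held 44.7% to 60.9% of the Hox signal in No operation, 46.6% to 54.6% in SHAM and 42.8% to 50.3% in Laminectomy mice. The mean paralogue number, weighted by RPKM, was 6.24, 7.22, 7.15 and 6.96 in No operation mice, 6.58, 6.39, 6.75 and 6.77 in SHAM mice and 6.83, 6.89, 6.73 and 6.73 in Laminectomy mice. The lowest value was that of No operation mouse 1, and the other 3 mice of its group had the 3 highest. The *Hoxb* cluster held 12.4%, 8.27%, 7.45% and 6.71% of summed RPKM in No operation mice, 14.8%, 18.7%, 13.9% and 16.95% in SHAM mice and 24.3%, 22.1%, 17.7% and 17.2% in Laminectomy mice. The summed *Hoxb* level was 26.8 to 37.1 CPM in No operation, 32.8 to 61.9 CPM in SHAM and 62.0 to 87.8 CPM in Laminectomy mice. In this sum SHAM and No operation mice overlapped, unlike in the share. The *Hoxd* cluster held 19.2% to 28.3% in No operation, 14.3% to 19.3% in SHAM and 13.8% to 18.6% in Laminectomy mice. The *Hoxc* share (38.7% to 49.9%, 40.8% to 48.0% and 33.3% to 44.1%) and the *Hoxa* share (18.4% to 24.7%, 19.5% to 26.7% and 23.3% to 26.1%) overlapped between the groups. The summed CPM of the 38 genes was 353 ± 48.0 in No operation, 272 ± 51.0 in SHAM and 348 ± 39.7 in Laminectomy mice (mean ± SD, n = 4), with overlapping ranges.

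No operation mouse 1 had low levels of paralogues 9 and 10 within its group. *Hoxc10* was at 2.96 CPM in this mouse and at 36.4, 32.04 and 32.2 CPM in the other 3. *Hoxa10* was at 0.965 CPM against 22.7, 14.8 and 10.4 CPM. *Hoxd10* was at 0.0689 CPM, a single read, against 9.70, 4.996 and 4.56 CPM. All 3 genes encode paralogue 10 factors, which pattern the lumbar spine and the hind limb. *Hoxa9* (3.65 CPM against 13.04 to 23.9) and *Hoxd9* (9.44 CPM against 22.9 to 27.5) were lowest in the same mouse. Of the 13051 genes above 3 CPM in at least 1 No operation mouse, *Hoxc10*, *Hoxd10* and *Hoxa10* ranked 2, 3 and 4 by the gap between this mouse and the lowest of the other 3, on log2 of CPM plus 0.5.

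The lower paralogues of this mouse were mixed. Within its group it was lowest for 3 and highest for 1 of 6 tested paralogues 1 to 3, and lowest for 3 and highest for 3 of 8 tested paralogues 6 to 8. *Hoxd3* was at 1.17 CPM against 2.94 to 3.27 CPM and *Hoxd4* at 8.82 CPM against 12.9 to 16.8 CPM. It had the highest level of its group for 5 of 7 tested paralogues 4 and 5, among them *Hoxc5* at 17.7 CPM against 6.30, 9.32 and 10.6 CPM, and was lowest for the other 2. It was lowest for all 3 tested paralogues 10, for 3 of 4 paralogues 9 and for *Hoxa11*, where it had no read. The same mouse had the highest macrophage marker sum of its group, 1160 CPM against 485 to 619 CPM, while its fibroblast marker sum (28894 CPM) was close to that of No operation mouse 2 (27415 CPM). Some genes of wounds and scar, picked once their values had been seen, were also high in this mouse, and others were not. *Arg1*, an enzyme of wound macrophages, was at 41.01 CPM against 0.266 to 0.378 CPM in the other 3 No operation mice, and the acute phase gene *Saa3* at 59.1 CPM against 0.491 to 0.945 CPM. The fibroblast gene *Lrrc15* was at 155 CPM against 2.10 to 8.69 CPM, and *Postn*, a matrix gene of scar, at 2053 CPM against 99.6 to 329.7 CPM. Among the fibroblast markers *Col3a1* (9680 CPM against 1057 to 2180 CPM), *Pdgfra*, *Lum*, *Dpt*, *Pi16* and *Prrx1* were also highest in this mouse. *Fap* (38.7 CPM against 41.1 to 88.9 CPM) and *Dcn* were lowest in it, and *Col1a1* and *Col1a2* were below No operation mouse 2. The part of these genes or their cells in the Hox values of this mouse was not tested. The labels do not give the level of the spine from which the tissue of each mouse was cut, so a difference in level was not tested. Results that rest on this mouse are given with and without it.

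**Figure D2:**
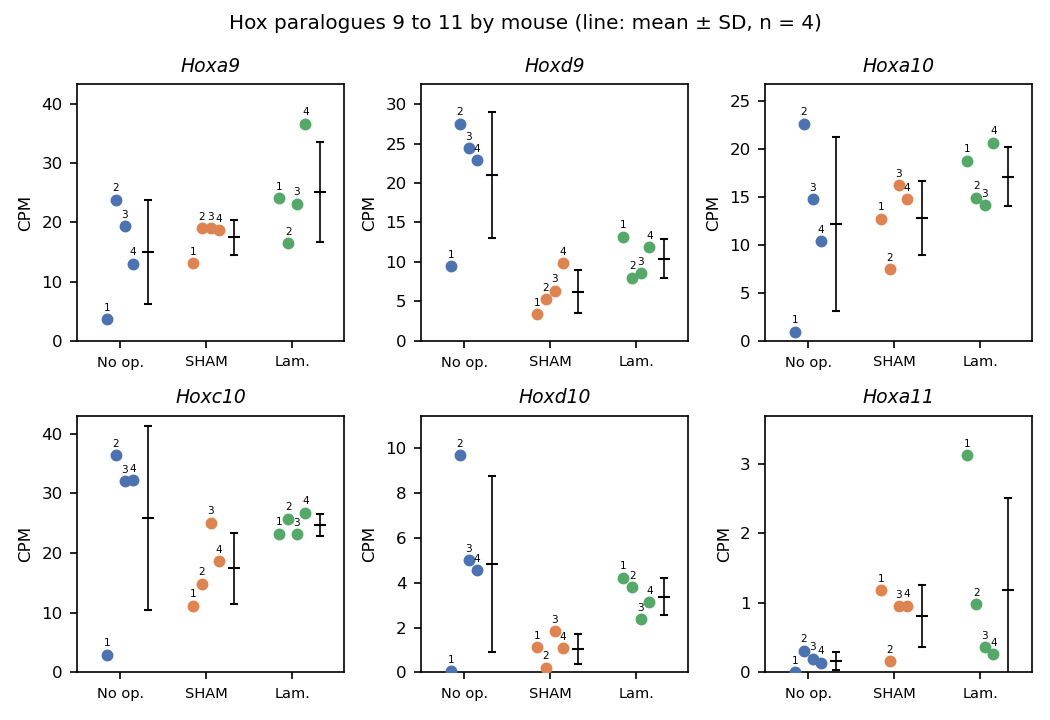
CPM of 6 genes of paralogues 9 to 11 in each mouse, with the replicate number over each point and the mean ± SD (n = 4) as a line beside it. The vertical axes start at 0. No operation mouse 1 lies at the bottom of its group in each panel, and *Hoxa10* and *Hoxc10* in the operated groups lie between the values of that mouse and the highest values of its group.

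Between SHAM and No operation mice, the called members of *Hoxb* were higher and those of the other clusters lower in the main fit. A gene was called at an adjusted p below 0.05 (Benjamini-Hochberg over all genes, quasi-likelihood test of edgeR) and an absolute log2 fold change above 0.5. Of the 29 tested members 11 were called, 3 higher and 8 lower, which is 37.9% against 50.8% of all 14765 genes tested (25.7% higher and 25.1% lower). The difference between these shares was not tested. The 3 higher members were all in *Hoxb* (*Hoxb2*, *Hoxb4*, *Hoxb8*), which is 37.5% of its 8 tested genes beside 25.7% of all genes. The 8 lower ones were in *Hoxa* (*Hoxa3*, *Hoxa6*, *Hoxa7*), *Hoxc* (*Hoxc5*, *Hoxc9*) and *Hoxd* (*Hoxd8*, *Hoxd9*, *Hoxd10*). DESeq2, and edgeR without a scaling factor, each also called 1 *Hoxa* gene higher. The median log2 fold change was 0.52 over the 8 tested *Hoxb* genes, -0.34 over 10 *Hoxa*, -0.42 over 6 *Hoxc* and -1.004 over 5 *Hoxd* genes, and -0.0020 over all genes.

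Between Laminectomy and No operation mice, 12 of 29 members were called, 7 higher and 5 lower. This is 41.4% against 48.6% of all genes tested (24.2% higher and 24.4% lower), a difference that was likewise not tested. The higher members were 6 *Hoxb* genes (*Hoxb2*, *Hoxb3*, *Hoxb4*, *Hoxb7*, *Hoxb8*, *Hoxb9*) and *Hoxa11*, and the lower ones *Hoxa7*, *Hoxc5*, *Hoxc9*, *Hoxd8* and *Hoxd9*. The median log2 fold change was 0.86 over *Hoxb*, 0.35 over *Hoxa*, -0.35 over *Hoxc* and -0.51 over *Hoxd*, against 0.0093 over all genes. Both comparisons use the same 4 No operation mice, so their values are given side by side and their likeness is not a result. Called in both were *Hoxa7*, *Hoxb2*, *Hoxb4*, *Hoxb8*, *Hoxc5*, *Hoxc9*, *Hoxd8* and *Hoxd9*.

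These directions depend on the scaling. Without a scaling factor (total counts only), the median log2 fold change of all genes was 0.25 in SHAM and 0.33 in Laminectomy mice. The members called against No operation were then 6 higher and 4 lower in SHAM, and 11 higher and 1 lower in Laminectomy mice. Of all genes, 53.2% and 52.8% were called with this scaling, in either direction. The *Hoxb* and *Hoxa7* calls, and those of *Hoxc5*, *Hoxd8* and *Hoxd9* in SHAM mice, held under every scaling run. *Hoxa3*, *Hoxa6*, *Hoxc9* and *Hoxd10* in SHAM and *Hoxc5*, *Hoxc9*, *Hoxd8* and *Hoxd9* in Laminectomy mice were not called with total counts. Without No operation mouse 1, 13 members were called in SHAM (50.4% of all genes) and 10 in Laminectomy mice (47.7% of all genes).

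**Figure D3:**
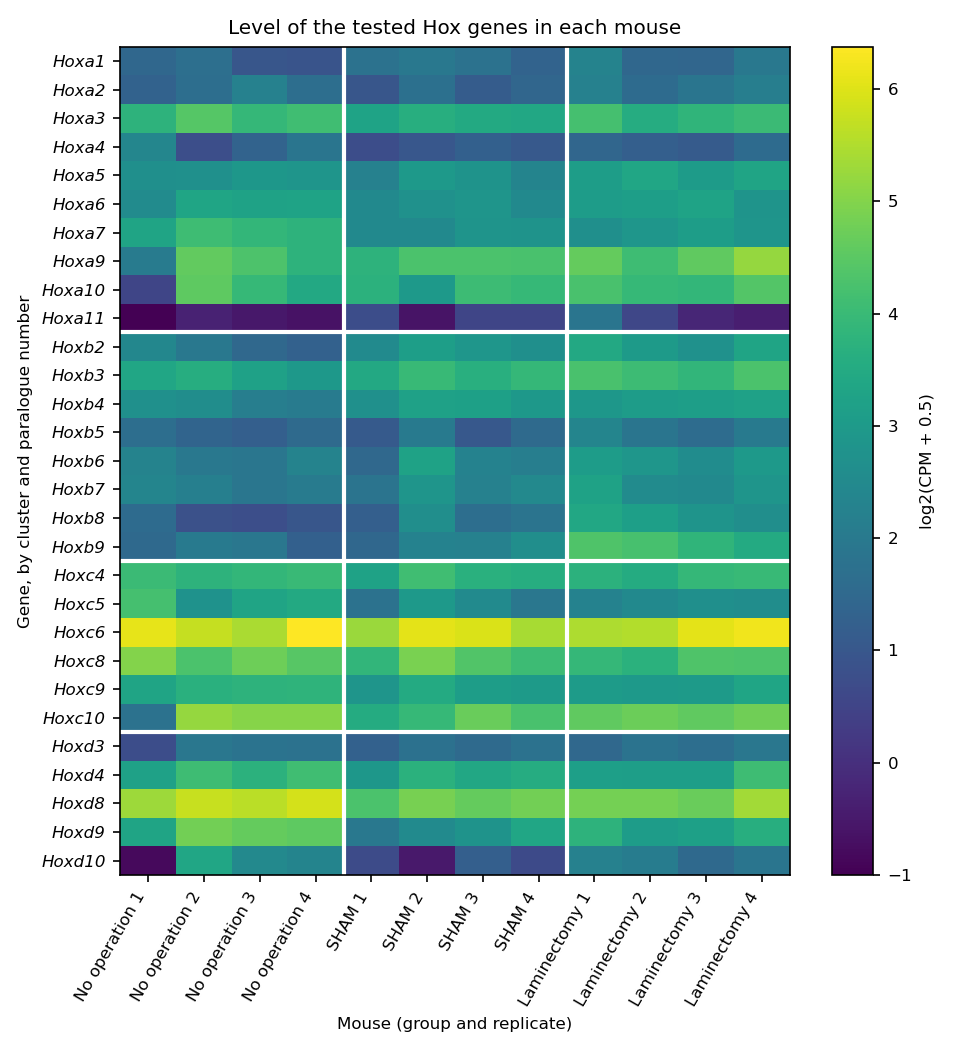
Level of the 29 tested Hox genes in each of the 12 mice, as log2 of CPM plus 0.5 (colour), with genes ordered by cluster and paralogue number and white lines between clusters and groups. *Hoxc6* and *Hoxd8* are the brightest rows, the 3 paralogue 10 genes are darkest in No operation mouse 1, and *Hoxb8* and *Hoxb9* are brightest in Laminectomy mice.

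In the *Hoxb* cluster, *Hoxb2* (a hindbrain segment gene in the embryo) was at 4.82, 3.34, 2.33 and 1.96 CPM in the No operation group, 5.23, 8.29, 6.83 and 5.82 CPM in the SHAM group and 10.5, 7.61, 6.11 and 9.38 CPM in the Laminectomy group. The operated mice lay above all No operation mice. The log2 fold change was 1.07 (SE 0.288, adjusted p = 0.00717, edgeR) in SHAM and 1.43 (SE 0.289, adjusted p = 0.00138, edgeR) in Laminectomy mice. Exons of *Hoxb2* overlap the antisense gene *Hoxb3os* over 27.3% of their length, and those of *Hoxb3* over 52.9%, and with counting that ignores strand reads of the 2 strands cannot be told apart. *Hoxb4*, known for its use in blood stem cells and the neck, has no such overlap. It was at 5.996, 5.67, 3.93 and 3.72 CPM in No operation, 6.07, 8.83, 8.58 and 7.15 CPM in SHAM and 6.99, 7.87, 8.34 and 8.81 CPM in the Laminectomy group, with log2 fold changes of 0.66 (SE 0.196, adjusted p = 0.0115, edgeR) and 0.73 (SE 0.196, adjusted p = 0.00746, edgeR). The sum of 7 haematopoietic progenitor markers, most of it *Cd34*, was 336 to 501 CPM in No operation, 287 to 363 CPM in SHAM and 147 to 294 CPM in the Laminectomy group. Of the 7 genes *Flt3* was called higher in both operated groups, and 2 were called lower in SHAM and 3 in Laminectomy mice. Of all genes, 50.8% were called in SHAM and 48.6% in Laminectomy mice. The part of these 7 markers in the *Hoxb4* values was not tested.

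*Hoxb8* and *Hoxb9*, neighbours at the thoracic end of the cluster, had their highest levels in Laminectomy mice. *Hoxb8* (chromosome 11, 96279401 to 96285325) was at 2.48, 1.26, 1.20 and 1.47 CPM in the No operation group, 1.85, 5.78, 2.65 and 3.04 CPM in the SHAM group and 10.2, 8.53, 6.58 and 5.79 CPM in the Laminectomy group. The Laminectomy mice lay above all other mice, by a small margin over SHAM mouse 2, and SHAM and No operation mice overlapped. The log2 fold change was 1.05 in SHAM (SE 0.371, adjusted p = 0.0274, edgeR) and 2.28 in Laminectomy mice (SE 0.376, adjusted p = 0.00037, edgeR). The SHAM call was lost in 5 of 18 alternatives, namely a fit of the compared groups alone and without SHAM mouse 2 or No operation mouse 2, 3 or 4, and *Hoxb8* then had a log2 fold change of at least 0.65.

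*Hoxb9* (chromosome 11, 96271330 to 96276595), which patterns the thoracic segments and the breast region, was at 2.34, 3.59, 3.26 and 1.89 CPM in the No operation group, 2.25, 4.28, 4.18 and 5.71 CPM in the SHAM group and 19.9, 18.1, 13.7 and 10.8 CPM in the Laminectomy group. The 4 Laminectomy mice lay far above the other 8, which overlapped with each other. Against No operation mice the log2 fold change was 2.49 in Laminectomy (SE 0.314, adjusted p = 6.71e-05, edgeR) and 0.56 in SHAM mice (SE 0.308, adjusted p = 0.131, edgeR). *Hoxb3* (0.87, SE 0.176, adjusted p = 0.00142, edgeR) and *Hoxb7* (0.75, SE 0.260, adjusted p = 0.0264, edgeR) were also higher in Laminectomy mice. *Hoxb3* was at 7.15 to 11.6 CPM in No operation, 10.3 to 15.3 CPM in SHAM and 14.1 to 19.1 CPM in the Laminectomy group, and *Hoxb7* at 3.20 to 4.62, 3.09 to 6.69 and 5.13 to 8.95 CPM. *Hoxb7* was not called without No operation mouse 3 or 4 or without Laminectomy mouse 1 or 4. In SHAM mice *Hoxb3* differed from No operation mice by 0.48 (SE 0.176, adjusted p = 0.0316, edgeR), under the fold change required.

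**Figure D4:**
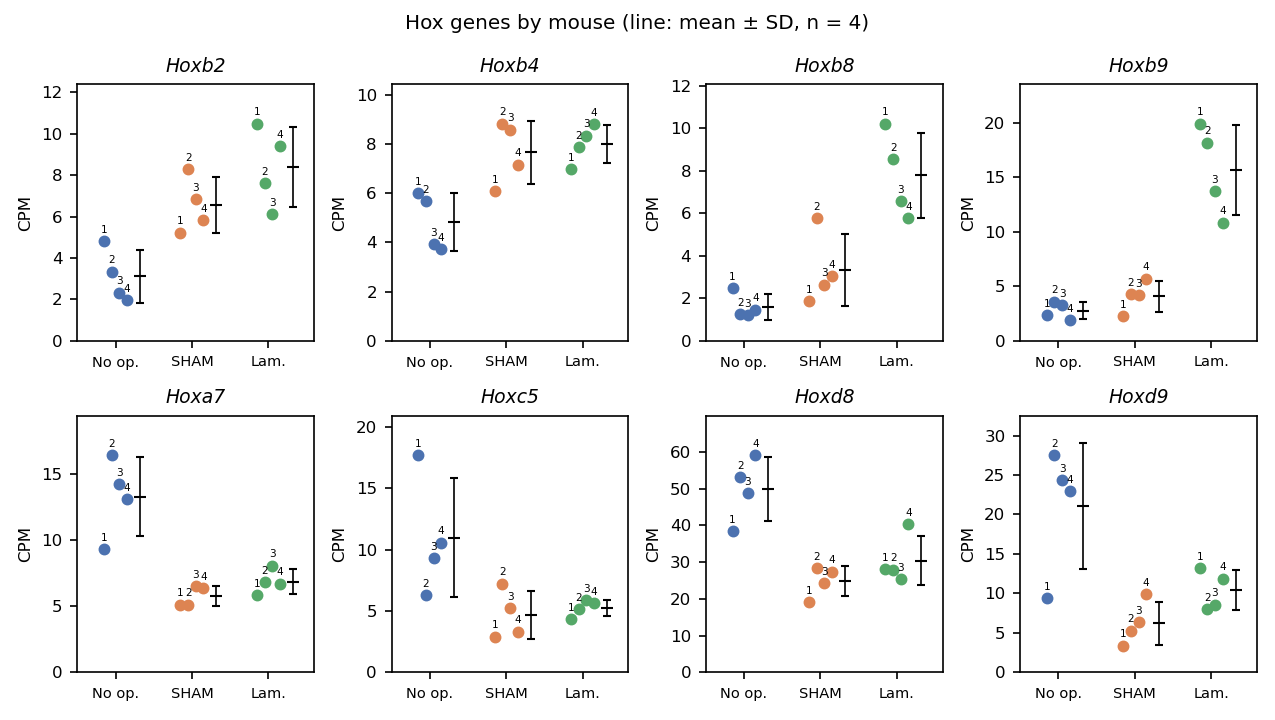
CPM of 8 Hox genes in each mouse, with the replicate number over each point and the mean ± SD (n = 4) as a line beside it. The vertical axes start at 0. The upper row shows *Hoxb* genes that were higher in Laminectomy mice, with *Hoxb9* at 10.8 to 19.9 CPM there and at no more than 5.71 CPM in all other mice. The lower row shows genes called lower in both operated groups, of which *Hoxa7* was also called in both with total counts.

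In the *Hoxa* cluster, *Hoxa7*, a thoracic gene, was called lower in both operated groups in all 18 alternatives. It was at 9.30, 16.4, 14.3 and 13.1 CPM in the No operation group, 5.11, 5.14, 6.51 and 6.35 CPM in the SHAM group and 5.82, 6.84, 8.08 and 6.72 CPM in the Laminectomy group, with no operated mouse reaching the lowest No operation mouse. The log2 fold change was -1.20 in SHAM (SE 0.186, adjusted p = 0.000211, edgeR) and -0.95 in Laminectomy mice (SE 0.185, adjusted p = 0.00106, edgeR). Exons of *Hoxa7* overlap the antisense gene *Hoxaas3* over 20.4% of their length. *Hoxa3* (log2 fold change -0.65, SE 0.174, adjusted p = 0.00705, edgeR) and *Hoxa6* (-0.53, SE 0.195, adjusted p = 0.0333, edgeR) were lower in SHAM mice, and in Laminectomy mice their values were -0.16 and -0.06, with no call. *Hoxa3* was at 13.2 to 20.97 CPM in No operation, 9.22 to 11.7 CPM in SHAM and 11.4 to 17.8 CPM in the Laminectomy group. The *Hoxa6* call was lost without any of 5 mice, No operation mice 2, 3 and 4 and SHAM mice 1 and 4, with total counts and in a fit of the compared groups alone, while without No operation mouse 1 the fold change was -0.69 (adjusted p = 0.00386, edgeR).

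*Hoxa11*, which patterns the limb, was near the lower limit of the assay. It had 0, 5, 3 and 2 reads in No operation mice, 21, 3, 18 and 18 in SHAM mice and 59, 19, 7 and 5 in Laminectomy mice. Its log2 fold change of 2.78 in Laminectomy mice (SE 0.961, adjusted p = 0.0263, edgeR) was carried by Laminectomy mouse 1 with 3.12 CPM, and without that mouse it was 1.64 and not called (adjusted p = 0.124, edgeR). Without No operation mouse 1 it was 2.39 and not called (adjusted p = 0.0580, edgeR), and it was also not called without No operation mouse 3 or 4 or with the replicate block. In SHAM mice the log2 fold change of *Hoxa11* was 2.24 (SE 0.974, adjusted p = 0.0638, edgeR), which was not called. The gene passed the filter on low counts through the operated groups, and 35.0% of its exon length overlaps the antisense gene *Hoxa11os*.

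*Hoxa10* and *Hoxa9* gave no call, and their direction in SHAM mice rested on No operation mouse 1. *Hoxa10* was at 12.8, 7.49, 16.3 and 14.8 CPM in SHAM and 18.8, 14.96, 14.1 and 20.7 CPM in the Laminectomy group, within the range of the other No operation mice apart from SHAM mouse 2. Its log2 fold change was 0.07 in SHAM (SE 0.587, adjusted p = 0.926, edgeR) and 0.49 in Laminectomy mice (SE 0.586, adjusted p = 0.495, edgeR), and -0.31 and 0.10 without No operation mouse 1. *Hoxa9* differed by 0.22 and 0.74, and by -0.10 and 0.42 without that mouse. The standard error of *Hoxa10* fell to 0.300 in both comparisons when that mouse was left out.

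In the *Hoxc* cluster all 6 tested genes had negative values in both comparisons (4 of 6 in SHAM and 3 of 6 in Laminectomy mice with total counts), and *Hoxc5* and *Hoxc9* were called in both. *Hoxc5*, a neck and upper thorax gene, was at 17.7, 6.30, 9.32 and 10.6 CPM in the No operation group, 2.92, 7.22, 5.24 and 3.31 CPM in the SHAM group and 4.34, 5.14, 5.91 and 5.63 CPM in the Laminectomy group. The SHAM and No operation mice overlapped. Its log2 fold change was -1.23 in SHAM (SE 0.341, adjusted p = 0.00836, edgeR) and -1.06 in Laminectomy mice (SE 0.339, adjusted p = 0.0181, edgeR), and -0.90 (adjusted p = 0.0282, edgeR) and -0.73 (adjusted p = 0.0645, edgeR) without No operation mouse 1. *Hoxc9*, a lower thoracic gene, was at 9.44 to 13.3 CPM in No operation, 6.69 to 10.97 CPM in SHAM and 7.40 to 9.64 CPM in the Laminectomy group, with values of -0.54 (SE 0.178, adjusted p = 0.0208, edgeR) and -0.57 (SE 0.178, adjusted p = 0.0160, edgeR). The SHAM call of *Hoxc9* was lost with total counts and without No operation mouse 3 or 4 or SHAM mouse 1 or 4.

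*Hoxc10* changed its call with No operation mouse 1. It was at 11.2, 14.9, 25.1 and 18.7 CPM in the SHAM group and at 23.2, 25.8, 23.2 and 26.7 CPM in the Laminectomy group, all between the level of that mouse and the 32.04 to 36.4 CPM of the other 3 No operation mice. With all mice the log2 fold change was -0.57 in SHAM (SE 0.525, adjusted p = 0.362, edgeR) and -0.07 in Laminectomy mice (SE 0.522, adjusted p = 0.920, edgeR). Without No operation mouse 1 it was -0.94 in SHAM, a call (SE 0.217, adjusted p = 0.00362, edgeR), and -0.44 in Laminectomy mice (SE 0.216, adjusted p = 0.104, edgeR). *Hoxc6*, the member with the highest level, gave no call in any comparison.

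In the *Hoxd* cluster, *Hoxd8* and *Hoxd9*, genes of the lower trunk, were called lower in both operated groups, without a call in Laminectomy mice under total counts. *Hoxd8* was at 38.5, 53.0, 48.7 and 59.1 CPM in the No operation group, 19.2, 28.4, 24.4 and 27.4 CPM in the SHAM group and 28.1, 27.9, 25.3 and 40.4 CPM in the Laminectomy group. SHAM mice lay below all No operation mice, and Laminectomy mouse 4 overlapped with that group. The log2 fold change was -1.004 in SHAM (SE 0.181, adjusted p = 0.000588, edgeR) and -0.71 in Laminectomy mice (SE 0.180, adjusted p = 0.00532, edgeR). *Hoxd9* was at 9.44, 27.5, 24.4 and 22.9 CPM in the No operation group, 3.37, 5.30, 6.35 and 9.88 CPM in the SHAM group and 13.2, 8.02, 8.60 and 11.9 CPM in the Laminectomy group, where No operation mouse 1 alone reached the operated groups. Its values were -1.76 (SE 0.368, adjusted p = 0.00155, edgeR) and -1.02 (SE 0.359, adjusted p = 0.0287, edgeR), and -1.999 (adjusted p = 0.0003, edgeR) and -1.26 (adjusted p = 0.00494, edgeR) without that mouse. The Laminectomy value was not called in 7 of 18 alternatives, namely total counts, the replicate block and without No operation mouse 2, 3 or 4 or Laminectomy mouse 2 or 3.

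*Hoxd10* was at 1.12, 0.214, 1.85 and 1.07 CPM in the SHAM group and 4.24, 3.80, 2.38 and 3.13 CPM in the Laminectomy group. The SHAM mice lay below the Laminectomy mice and below No operation mice 2 to 4. With all mice the log2 fold change was -2.18 in SHAM (SE 0.855, adjusted p = 0.0438, edgeR) and -0.51 in Laminectomy mice (SE 0.801, adjusted p = 0.603, edgeR). The SHAM call was lost in 13 of 18 alternatives. It held with DESeq2, with the size factors of DESeq2 in edgeR, with no filter and without No operation mouse 1 or SHAM mouse 3, and without No operation mouse 1 it was -2.58 (SE 0.524, adjusted p = 0.00170, edgeR). The Laminectomy value without that mouse was -0.92 (adjusted p = 0.136, edgeR). *Hoxd3* and *Hoxd4*, whose exons overlap each other and antisense genes over 62.8% and 52.3% of their length, gave no call.

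**Figure D5:**
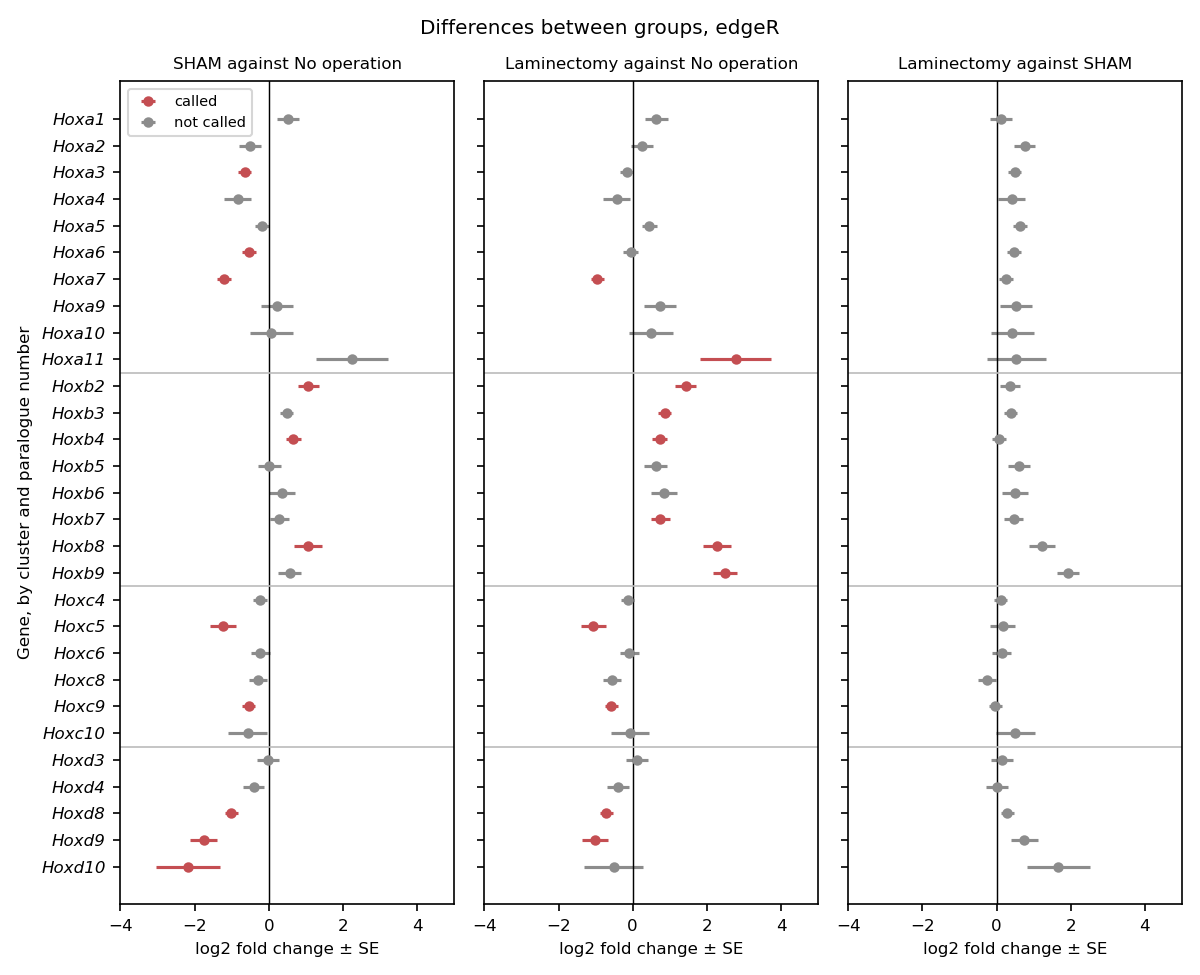
Log2 fold change (horizontal axis) with its standard error for the 29 tested Hox genes in the 3 comparisons, with n = 4 mice per group, ordered by cluster and paralogue number. Red points were called and grey points were not. *Hoxb* points lie right of 0 in all 3 panels, *Hoxc* points lie left of 0 in both comparisons with No operation mice in this scaling (not all do with total counts), and edgeR called no member between Laminectomy and SHAM mice (DESeq2 called 3), where *Hoxb9* lies farthest right at 1.93.

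Laminectomy and SHAM mice differ in the removal of the laminae and may differ in the soft tissue removed. Between them no member was called by edgeR, and neither was any of the 14765 genes (0%). At an unadjusted p below 0.05 there were 2360 genes, 7 of them Hox genes (*Hoxb9*, *Hoxb8*, *Hoxa5*, *Hoxa3*, *Hoxa2*, *Hoxa6* and *Hoxb3*). *Hoxb9* had the fourth smallest p of all genes (log2 fold change 1.93, SE 0.304), and its adjusted p of 0.0698 (edgeR) was the smallest reached, shared by 17 genes. *Hoxb8* followed among members at 1.22 (SE 0.356, adjusted p = 0.151, edgeR) and *Hoxa5*, a neck and lung gene, at 0.63 (SE 0.192, adjusted p = 0.160, edgeR). DESeq2 called these 3 members, all higher in Laminectomy mice, among 4.07% of all genes (601 genes), with adjusted p of 3.54e-06, 0.0272 and 0.0389. For *Hoxb9*, *Hoxb8* and *Hoxa5* all 4 Laminectomy mice lay above all 4 SHAM mice. A two-sided exact permutation test of log2(CPM + 1) could then only give p = 0.0286, the smallest that 4 against 4 mice can give. These 3 were chosen for their difference, so this p adds no support. For *Hoxb8* the nearest mice of the groups were at 5.787 and 5.777 CPM.

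Most other members had small positive values. Of 29 tested members 27 had a positive log2 fold change, against 50.6% of all genes, with a median of 0.42 against 0.0037 over all genes and with *Hoxc8* (-0.27) and *Hoxc9* (-0.03) as the exceptions. The values ran from -0.27 to 1.93. The number was 27 with the size factors of DESeq2 and 28 with total counts. The summed level of all members was 310.6 to 403 CPM in Laminectomy and 204 to 323 CPM in SHAM mice, which overlapped, and the 204 CPM was that of SHAM mouse 1. Without this mouse 24 of 29 members had a positive value, with a median of 0.31. *Hoxd10* differed by 1.66 (SE 0.847, adjusted p = 0.364, edgeR), with the 4 Laminectomy mice above the 4 SHAM mice.

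Transcripts of cartilage and bone, and in Laminectomy mice 2 and 3 of nervous tissue, moved with this comparison, although edgeR called no gene of these lists between Laminectomy and SHAM mice. DESeq2 called 3 of the 8 cartilage and bone markers and 1 of the 2 tested glia markers (*Gfap*) higher in Laminectomy mice, while the other, *Aldh1l1*, was at -0.91 on the log2 scale (edgeR). The summed level of 8 cartilage and bone markers was 2011, 2513, 904 and 726 CPM in the Laminectomy group 1 to 4, against 10.8 to 146 CPM in the SHAM group and 15.4 to 630 CPM in the No operation group. *Hoxb9* was at 19.9, 18.1, 13.7 and 10.8 CPM in the same Laminectomy mice, and at 3.59 CPM in No operation mouse 2, which had the 630 CPM. The bone gene *Bglap* was at 0 in No operation mouse 1 and SHAM mouse 1. The part of bone or cartilage in the *Hoxb9* and *Hoxb8* values was not tested. The 7 neuron markers summed to 15.5, 167, 57.8 and 12.3 CPM in the Laminectomy group 1 to 4 and to 10.5 to 16.4 CPM in SHAM mice. In Laminectomy mice 1 and 4 the neuronal genes *Snap25*, *Syt1*, *Nefl* and *Slc17a6* were at no more than 0.0529 CPM and *Rbfox3* at 0.424 and 0.313 CPM. *Tubb3* was at 13.1 and 9.96 CPM and *Gad1* at 1.91 and 1.98 CPM there, against 8.13 to 11.6 CPM and 1.85 to 4.38 CPM in SHAM mice. The part of nervous tissue in the *Hoxb9* values was not tested. The sum of 6 glia markers of the central nervous system was 9.11 to 103 CPM in Laminectomy and 8.88 to 40.5 CPM in SHAM mice, and *Olig2* was at 0 in Laminectomy mice 1 and 4 and in all SHAM mice. Markers of other cell types were compared too. All 8 macrophage genes had negative and all 8 satellite cell genes positive values in Laminectomy against SHAM mice, and DESeq2 called 2 macrophage genes lower. The 10 muscle fibre genes (median 0.54) and 5 tendon genes (median 0.86) all had positive values and the 5 adipocyte genes negative ones (median -1.66). DESeq2 called 1 keratinocyte and 1 haematopoietic progenitor gene lower. The 5 meningeal markers summed to 38.6 to 60.7 CPM in the Laminectomy group and 25.6 to 59.7 CPM in SHAM mice, with 2 at positive and 3 at negative log2 fold changes (median -0.18), and DESeq2 called the 2 positive ones higher. *Foxc1*, 1 of these, was at 12.6 to 27.8 CPM in Laminectomy and 2.59 to 5.61 CPM in SHAM mice, while *Crabp2* was at 8.23 to 24.6 CPM and 11.1 to 22.7 CPM. DESeq2 also called 1 of 5 peripheral nerve glia markers higher and 1 higher and 2 lower of the 12 fibroblast markers. Their part in the Hox values was not tested.

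Of the HOX cofactors of the TALE family, 8 of 9 were tested, and 3 rose and 1 fell against No operation mice in both operated groups. That is 4 of 8, beside 50.8% and 48.6% of all genes called. *Pbx3* was at 5.48 to 7.58 CPM in No operation, 11.7 to 13.7 CPM in SHAM and 12.4 to 14.8 CPM in the Laminectomy group (log2 fold changes of 0.999 and 1.10). *Meis3* (0.80 and 0.65) and *Pbx2* (0.73 and 0.60) were also called higher. *Pknox2* was at 46.9 to 66.2 CPM, 10.3 to 21.3 CPM and 18.6 to 22.8 CPM (-1.95 and -1.51). The median over the 8 genes was 0.21 in SHAM and 0.15 in Laminectomy mice, against -0.0020 and 0.0093 over all genes. With total counts 4 were called higher in SHAM and 3 in Laminectomy mice, and *Pknox2* stayed lower.

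Retinoic acid and CDX factors set Hox expression in the embryo. Of 14 genes of retinoic acid signalling and axial patterning, 13 were analysed here and 9 tested, with 1 higher and 4 lower in SHAM and 1 higher and 5 lower in Laminectomy mice, beside 25.7% and 25.1% of all genes in SHAM and 24.2% and 24.4% in Laminectomy mice. *Aldh1a1*, which makes retinoic acid, was called lower (log2 fold changes of -2.14 in SHAM and -3.18 in Laminectomy mice). *Rarb*, a retinoic acid receptor and target, was at 12.1 to 16.8 CPM in No operation, 3.77 to 4.50 CPM in SHAM and 2.17 to 5.19 CPM in the Laminectomy group (-1.87 and -2.07). *Cyp26a1*, which breaks retinoic acid down, was called lower (-1.71 and -2.22), and *Rara*, another retinoic acid receptor, rose by 1.09 and 0.59. With total counts 1 was called higher and 3 lower in SHAM, and 2 higher and 4 lower in Laminectomy mice. The median over the 9 genes was -0.69 in SHAM and -1.19 in Laminectomy mice.

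The chromatin regulators of Hox genes are read against 25.7% of all genes called higher and 25.1% lower in SHAM and 24.2% and 24.4% in Laminectomy mice. Of 11 tested genes of the silencing complex PRC2, 1 was higher and 1 lower in SHAM and 2 higher and 2 lower in Laminectomy mice, where *Phf19* rose by 1.21, the methyltransferase gene *Ezh2* rose by 1.07 and its paralogue *Ezh1* fell by 1.15. Of 12 PRC1 genes, 3 were higher and 2 lower in both groups. With total counts PRC2 had 2 higher and 1 lower in SHAM and 5 higher and 1 lower in Laminectomy mice, and PRC1 had 6 higher and 1 lower and 7 higher and 1 lower. With that scaling 53.2% of all genes were called in SHAM and 52.8% in Laminectomy mice, in either direction. *Cbx7*, a subunit that reads the silencing mark, was at 42.6 to 56.1 CPM in No operation, 10.8 to 19.4 CPM in SHAM and 9.42 to 13.7 CPM in the Laminectomy group, with log2 fold changes of -1.73 and -1.94. Of 12 MLL and demethylase genes, none was higher, 1 (*Kmt2c*) was lower in SHAM and 2 (*Kmt2c*, *Kmt2a*) were lower in Laminectomy mice. With total counts no MLL or demethylase gene was called lower, and 2 and 4 were called higher. Of 7 genes of CTCF and cohesin, which fold the clusters into domains, none was called in either group, with a sum of 562 to 792 CPM over the 12 mice, and 1 was called higher in Laminectomy mice with total counts.

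Of 14 genes next to the clusters, 12 were analysed and 8 tested, with 2 higher and 3 lower in both operated groups, beside the same background. *Skap2*, next to *Hoxa*, rose by 1.54 in SHAM and 1.37 in Laminectomy mice. *Lnpk*, next to *Hoxd*, and *Calcoco1*, next to *Hoxc*, were called lower (-1.61 and -1.31, and -1.24 and -1.28), and these 3 were called in the same direction with total counts. Of 40 other transcription factors of body position and limb patterning, 32 were tested, with 7 higher and 10 lower in SHAM and 6 higher and 10 lower in Laminectomy mice. With total counts these were 10 higher and 8 lower, and 7 higher and 7 lower. The shares of all genes, for the main fit and for total counts, are those given for the regulators. *Pax3*, a factor of muscle progenitors, had log2 fold changes of -4.22 and -3.83, *Lbx1*, a factor of migrating muscle precursors, of -3.05 and -2.47, and *Tbx18* rose by 2.13 and 1.74. *Foxc2*, a factor of the axial skeleton, rose by 1.86 in Laminectomy mice. Between Laminectomy and SHAM mice edgeR called no gene of the lists of cofactors, regulators, neighbours and positional factors, while DESeq2 called 3 positional factors higher and 6 lower, and 0 in the other lists.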

How the data were processed

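The authors prepared stranded, polyA-selected mRNA libraries from the tissue of 12 mice and sequenced them as paired ends. Per the labels, reads were aligned with STAR 2.6.1b to mm10 (GRCm38), counted per gene with featureCounts 2.0.1 and tested with DESeq2 1.30.1. The study's methods give default counting settings, which ignore strand. The table the authors deposited holds estimated counts of 18996 genes, not normalized. Of its values 10.22% are not whole, so all were rounded (by at most 0.5), and all values of Hox genes were whole. The study's design text states that 3 of 4 mice per group were selected for the authors' own tests without naming them, so all 4 were used here.

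Groups came from the labels. Genes were filtered with filterByExpr, which removed 4231 and left 14765, scaled by TMM (factors 0.849 to 1.13), and fitted over all 12 mice with edgeR 4.0.16 (glmQLFit, glmQLFTest, R 4.3.3). CPM are scaled to the TMM-adjusted library size, and RPKM divides CPM by the exon length in GENCODE M21. Calls needed an absolute log2 fold change above 0.5 at an adjusted p (Benjamini-Hochberg) below 0.05. SE is the log2 fold change over the square root of F. Each edgeR p-value sets a group difference against a spread between mice, estimated over all 3 groups and moderated across genes. DESeq2 1.42.0 served as an alternative, and 3 genes were compared by exact permutation (scipy 1.17.1). On simulated counts of 14670 genes with 200 changed between Laminectomy and SHAM, edgeR called 77.0% of these with 6 other calls and DESeq2 83.0% with 40. What share of differences as small as most Hox differences between these 2 groups either tool would call was not tested. Promoters are from RefSeq (GRCm38.p6).

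The Hox genes and the lists were chosen with earlier results of these data known. The rule named members called in any comparison, the highest member per length of each cluster and tested paralogues 10 to 13, and per list up to 3 called genes with the widest fold change and at least 1 CPM. *Hoxa2*, *Hoxa5*, *Hoxa9*, *Hoxc8*, *Hoxd3*, *Hoxd4*, *Pbx2*, *Rara*, *Kmt2a*, *Arg1*, *Saa3*, *Lrrc15*, the untested members and the marker genes named singly fall outside it, picked once their values had been seen. Noncoding genes of the clusters were not analysed here.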

Additional observations from a re-analysis of the deposited data

Results flagged for a closer look

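Of 54 groups of 4 mice tested for a mouse far from the others (18 Hox genes in 3 groups, Dixon's ratio of CPM above its 95% critical value), 3 were set apart, where chance gives about 1 in 20. In No operation mouse 1, *Hoxc10* was at 2.96 CPM against 32.04 to 36.4 CPM in the other 3 mice of its group, and *Hoxa6* was at 5.44 CPM against 9.06 to 9.64 CPM. In Laminectomy mouse 4, *Hoxc9* was at 9.64 CPM against 7.40 to 7.78 CPM in the other 3.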

How the results depend on the processing

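Against No operation mice, 6 of the 11 members called in SHAM (*Hoxa7*, *Hoxb2*, *Hoxb4*, *Hoxc5*, *Hoxd8*, *Hoxd9*) and 6 of the 12 called in Laminectomy (*Hoxa7*, *Hoxb2*, *Hoxb3*, *Hoxb4*, *Hoxb8*, *Hoxb9*) were called in all 18 alternative fits. With an absolute log2 fold change above 1, 7 members were called in SHAM (31.1% of all genes) and 6 in Laminectomy mice (29.3%). Leaving out 1 mouse at a time gave 7 to 13 calls in SHAM, with 7 without No operation mouse 3 or 4, and 9 to 14 in Laminectomy mice, while 46.7% to 51.3% and 43.8% to 49.8% of all genes were called. Between Laminectomy and SHAM mice DESeq2 called 3 members and edgeR called 0 in every alternative, with adjusted p of *Hoxb9* from 0.0550 to 0.264 (edgeR). The replicate numbers were not taken to pair the mice, since the labels do not say so and not every same-numbered pair correlated above 0.1 (7 of 12 pairs did, in a range of -0.228 to 0.402 over all pairs, and 6 of 12 mice correlated best with their own number). With them as a replicate block, 10 members were called in SHAM (50.4% of all genes), 10 in Laminectomy (48.4%) and 0 between the operated groups, and *Hoxc10* in Laminectomy mice turned from -0.07 to 0.20. Uncalled values changed sign as follows, and the cause was not tested. *Hoxc10* in Laminectomy mice was at 0.24 with total counts and at 0.05 to 0.14 without No operation mouse 2, 3 or 4, over a range of -0.44 to 0.14 when 1 mouse was left out. *Hoxd10* in Laminectomy mice ran from -0.92 to 0.077, *Hoxa10* in SHAM mice from -0.31 to 0.56 and *Hoxa9* in SHAM mice from -0.10 to 0.54 over the same omissions. The group means of summed Hox CPM stayed within 1 SD, and leaving out a mouse gave 340 to 375 CPM in No operation, 255 to 295 CPM in SHAM and 330 to 361 CPM in Laminectomy mice. Depth limits the 9 untested members and *Hoxa11*.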
